A study of Mus musculus with 4 samples.

Results

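Ubb and Rps27a are genes that encode ubiquitin, the small protein that is attached to other proteins to mark them for breakdown or to change how they act. They were taken from the deposited expression table as the rows whose gene name is Ubb or Rps27a, 2 of 24346 rows. Expression is given as FPKM, sequenced fragments per kilobase of transcript scaled to the depth of the library, a scale on which levels of different genes can be set side by side. Both genes passed the filter on low values (FPKM 1 or more in 2 or more of the 4 libraries), as did 11595 rows in all. The pair was chosen by these same FPKM, with the difference between the groups known, so their values are given as a description, with no test.

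Ubiquitin is made as part of longer precursor proteins. Ubb encodes polyubiquitin, a row of ubiquitin units joined head to tail, and is known as a gene that responds to heat and other protein stress through heat shock factors. Rps27a encodes a single ubiquitin unit fused to a protein of the small ribosomal subunit. Deubiquitinases cut these precursors into single ubiquitins, which E1, E2 and ligase enzymes then attach to target proteins. In regulatory T cells (Treg cells), the Foxp3-expressing CD4+ T cells that restrain immune responses, Foxp3 itself is among the proteins controlled by ubiquitin ligases and deubiquitinases.

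The series asked how loss of the transcription factors Tcf1 (gene Tcf7) and Lef1 alters Treg cells. The dKO group had 2 libraries, labelled Tcf1-/-Lef1-/-, whose mice carried floxed alleles of Tcf7 and Lef1, and the wild-type (WT) group had 2 libraries from mice with both genes intact. All mice were male, 16 weeks old and carried the Foxp3-Cre-GFP allele, WT mice included, so Cre was present in both groups and was driven by Foxp3 and thus active in Treg cells. Cells were sorted from the spleen as Thy1.2+ CD4+ Foxp3-Cre-GFP+ and their RNA was sequenced in bulk. The libraries are called dKO_0, dKO_1, WT_0 and WT_1 after their columns. Nothing in the labels says that the 2 libraries of a group came from separate animals, so the p-values given for other genes measure the spread between libraries, which may be technical.

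The sequences of the ubiquitin units matter here because short reads from near-identical copies can be assigned to either. By script, the coding sequence of Ubb (transcript of 1499 bases) held 4 ubiquitin units of 76 residues followed by 1 further residue. That of Rps27a (transcript of 637 bases) held 1 unit followed by 80 residues of the ribosomal protein. Of the Ubb units the one numbered 3 from the start, the matching stretch of Gm1821, annotated as a transcribed processed pseudogene, and the unit of Rps27a are given from the GRCm38 genome with GENCODE M21 transcripts, 5′ to 3′ on the coding strand. Capitals mark bases that differ from that Ubb unit.
Ubb unit 3: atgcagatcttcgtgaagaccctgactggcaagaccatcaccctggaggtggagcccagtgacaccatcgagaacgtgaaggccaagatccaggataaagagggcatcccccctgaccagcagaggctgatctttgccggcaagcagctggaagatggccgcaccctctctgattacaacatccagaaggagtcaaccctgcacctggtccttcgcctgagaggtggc
Gm1821 counterpart: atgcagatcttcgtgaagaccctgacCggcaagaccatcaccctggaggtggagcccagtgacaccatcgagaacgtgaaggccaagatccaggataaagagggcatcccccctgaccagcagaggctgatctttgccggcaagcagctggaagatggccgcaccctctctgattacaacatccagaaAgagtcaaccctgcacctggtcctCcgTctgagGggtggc
Rps27a unit: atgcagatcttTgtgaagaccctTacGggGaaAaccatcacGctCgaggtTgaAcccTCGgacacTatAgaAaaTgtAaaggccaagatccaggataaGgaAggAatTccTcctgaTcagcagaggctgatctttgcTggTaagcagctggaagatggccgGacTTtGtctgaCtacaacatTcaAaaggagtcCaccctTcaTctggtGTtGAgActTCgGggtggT

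The Gm1821 stretch differed from the Ubb unit at 5 of 228 bases, an identity of 97.8%. The Rps27a unit differed at 44 bases, an identity of 80.7%, with a longest shared run of 20 bases against any Ubb unit. The 4 Ubb units were 95.6% to 99.1% identical to each other. The whole Gm1821 transcript (685 bases) matched that of Ubb at 675 bases, or 98.5%, with 1 shared run of 383 bases. Of all 50-base windows of the Ubb transcript, 884 of 1450 (61.0%) also occurred in Gm1821, and of the windows of the Gm1821 transcript, 593 of 636 (93.2%) occurred in Ubb. How reads that match several places were assigned is not given in the sources used here, so the split of reads between these rows is uncertain.

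Ubb lies at chr11:62551171-62553213 on the plus strand (GRCm38) and no annotated gene overlaps it. Its FPKM was 204.6 in dKO_0 and 202.9 in dKO_1, against 377.7 in WT_0 and 395.2 in WT_1. Both dKO libraries were below both WT libraries, with a gap of 173 FPKM between the highest dKO and the lowest WT value. The mean was 203.8 ± 1.15 FPKM in dKO and 386.4 ± 12.4 FPKM in WT (SD, n = 2 each), so that dKO stood at 52.7% of WT. On the log2(FPKM + 1) scale the difference, dKO minus WT, was -0.92 (SE 0.06 from the limma fit over all rows). Ubb ranked 460 and 446 by level among the 11595 tested rows in the dKO libraries, against 236 and 227 in the WT libraries. In the authors' deposited table the log2 fold change of Ubb was -0.92.

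Rps27a lies at chr11:29545846-29548109 on the minus strand (GRCm38), where the annotation has Clhc1 overlapping it on the plus strand. Clhc1 itself was at 0.143 to 0.310 FPKM in the 4 libraries, far below Rps27a, although without a stated strand setting their reads cannot be told apart where they overlap. The FPKM of Rps27a was 1548 in dKO_0 and 1372 in dKO_1, against 1625 in WT_0 and 1484 in WT_1. The groups overlapped, since dKO_0 was above WT_1. The mean was 1460 ± 125 FPKM in dKO and 1554 ± 99.6 FPKM in WT (SD, n = 2 each), 94.0% of WT. The log2 difference was -0.09 (SE 0.11), which is smaller than the spread between libraries of a group, and it ranged from -0.18 without dKO_0 to -0.004 without dKO_1. Its rank by level was 89 and 94 in the dKO libraries and 82 and 93 in the WT libraries. The authors' deposited table gave a log2 fold change of -0.09 for Rps27a.

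One of the 2 genes, Ubb, had both dKO libraries below both WT libraries, and 23.4% of all tested rows did so, while 27.8% had both dKO libraries above both WT libraries. Ubb is also 1 of the 147 rows in the authors' deposited list of genes lower in dKO, which holds 0.604% of all rows. Rps27a is neither in that list nor in their list of genes higher in dKO, which holds 0.76% of all rows. Because the choice of these genes used this contrast, nothing is read from those counts. For scale, 101 of the 11595 tested rows had a lower difference than Ubb, and 31 of these had a mean FPKM of at least 100. With rows named as small RNAs left out, 812 rows had such a mean. Among them the difference of Ubb followed only those of Gm25500 (-1.06) and Jchain (-0.97) from the low end. The name of Gm25500 does not tell its RNA type, so this filter could not sort it.

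**Figure D1:**
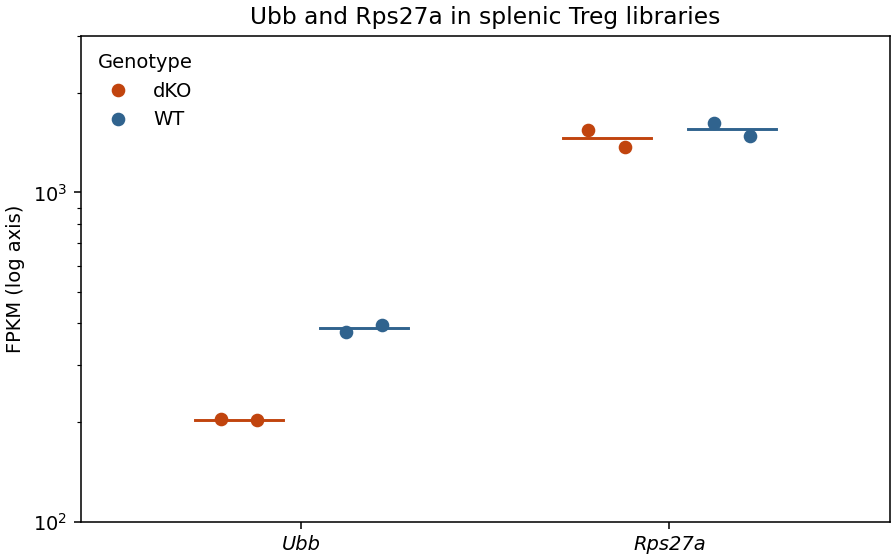
FPKM (log axis) of Ubb and Rps27a in each library; points are the 2 dKO and 2 WT libraries and bars are group means. Ubb sits at 204.6 and 202.9 FPKM in dKO against 377.7 and 395.2 FPKM in WT, while the dKO and WT points of Rps27a overlap.

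The pseudogene row Gm1821 (chr14:46084028-46085000, plus strand, GRCm38) showed the opposite order to Ubb. Its FPKM was 451.4 in dKO_0 and 416.7 in dKO_1, against 340.9 in WT_0 and 339.8 in WT_1. The mean was 434.1 ± 24.5 FPKM in dKO and 340.4 ± 0.768 FPKM in WT (SD, n = 2 each), and both dKO libraries were above both WT libraries. The log2 difference was 0.35 (SE 0.07) and missed the threshold over all rows (limma, Benjamini-Hochberg adjusted p = 0.158, range over the alternatives 0.0792 to 0.653).

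The FPKM of Ubb and Gm1821 were therefore also added. The sum was 656.0 in dKO_0 and 619.7 in dKO_1, against 718.6 in WT_0 and 735.0 in WT_1. Both dKO libraries remained below both WT libraries, but the sum averaged 638 ± 25.7 FPKM in dKO and 727 ± 11.6 FPKM in WT (SD, n = 2 each), 87.8% of WT, a log2 difference of -0.19. The choice of sum was made after the values were seen. Since the Ubb transcript is the longer one, each FPKM was also multiplied by transcript length, which gave a log2 difference of -0.43, with dKO at 74.2% of WT. Ubb made up 31.2% and 32.7% of the FPKM sum in the dKO libraries and 52.6% and 53.8% in the WT libraries. The part of read assignment between Ubb and Gm1821 in the Ubb difference was not tested, since the files hold no reads.

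**Figure D2:**
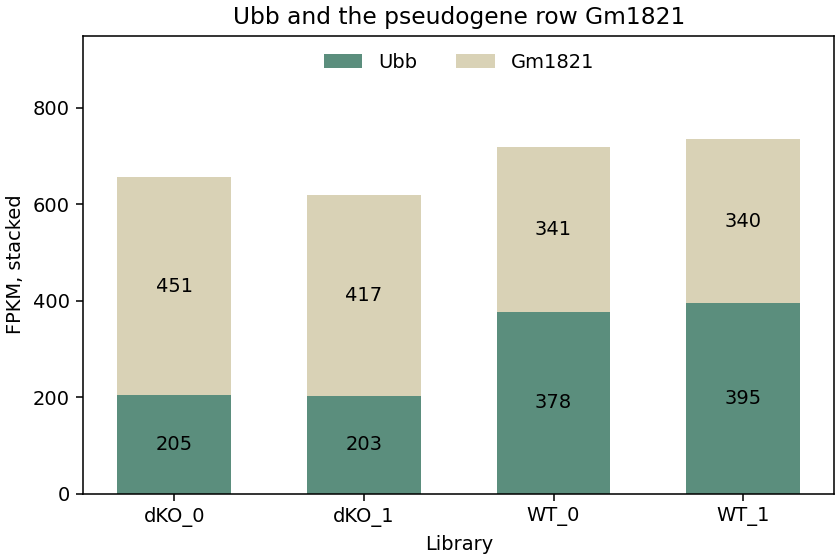
Stacked FPKM of Ubb and of the pseudogene row Gm1821 in each of the 4 libraries, with the value of each row printed on its bar. The Ubb bars are lower in dKO than in WT and the Gm1821 bars are higher, and the sums are 656.0 and 619.7 in dKO against 718.6 and 735.0 in WT.

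Rps27a has its own set of copies. Of the 588 windows of 50 bases in the Rps27a transcript, 423 (71.9%) also occurred in 14 other annotated genes, among them Gm8430, Rps27a-ps2 and Gm9354. Windows of the Ubb transcript occurred in 5 other annotated genes, of which 1, Gm1821, is among the deposited rows. None of the 14 gene names that share windows with Rps27a is among them. A sum like that of Ubb and Gm1821 could therefore not be made for Rps27a, and its level is uncertain to that extent. By estimated depth, the dKO libraries held about 6700 and 7100 fragments of Ubb and the WT libraries about 10100 and 12700. Counting error alone was then 0.886% to 1.23% of the Ubb level and 0.756% to 0.815% of the Rps27a level. Counting error was thus small beside the differences described, but it does not cover the assignment of reads between copies.

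In every library Rps27a was above Ubb, with no overlap between the genes. Rps27a was 7.57 and 6.76 times Ubb in FPKM in the dKO libraries, against 4.30 and 3.75 times in the WT libraries. Both dKO ratios were thus above both WT ratios, a description that rests on the same values by which the pair was chosen.

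To set the pair side by side as sources of ubiquitin mRNA, each FPKM was multiplied by the number of units the gene encodes, 4 for Ubb and 1 for Rps27a. Weighted in this way, Ubb had 818 and 812 in the dKO libraries, against 1511 and 1581 in the WT libraries. For Rps27a the weighted value equals its FPKM, so Ubb and Rps27a stood near each other in WT, whereas in dKO Ubb was below Rps27a. The weighted sum of both genes was 2367 and 2184 in the dKO libraries, against 3136 and 3065 in the WT libraries. It averaged 2275 ± 129 in dKO and 3100 ± 50.1 in WT (SD, n = 2 each), 73.4% of WT, a log2 ratio of -0.45. Ubb made up 34.6% and 37.2% of this sum in the dKO libraries and 48.2% and 51.6% in the WT libraries. With the Gm1821 FPKM added to that of Ubb before weighting, the log2 ratio of the weighted sum was -0.15. That value gives Gm1821 the weight of 4 as well, although its transcript has 685 bases against 1499 for Ubb. It also leaves this difference in length out of account, so it is no estimate of ubiquitin units encoded. The sum describes transcripts, and ubiquitin protein was not measured.

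**Figure D3:**
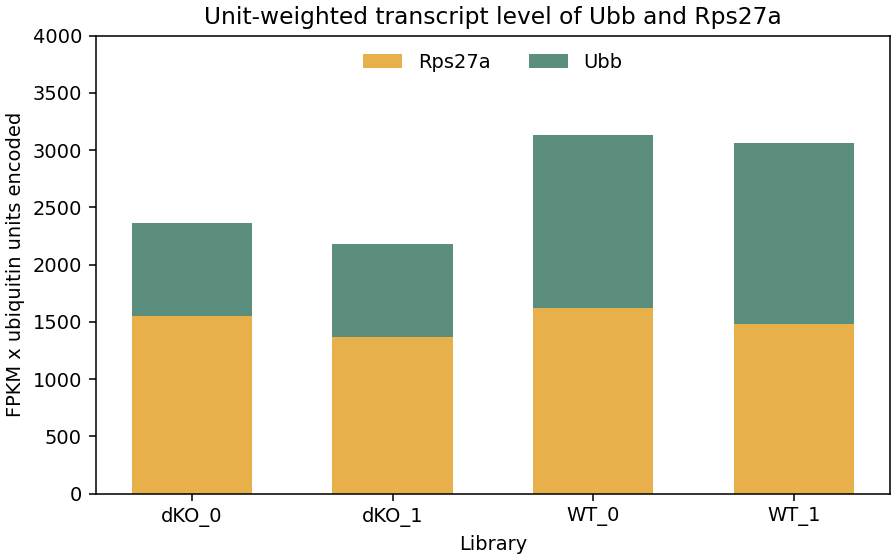
FPKM multiplied by the number of encoded ubiquitin units, stacked over Rps27a and Ubb for each library. The stacks reach 2367 and 2184 in dKO and 3136 and 3065 in WT, and the Ubb layer takes 34.6% and 37.2% of the dKO stacks against 48.2% and 51.6% of the WT stacks.

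Rps27a was next compared with the proteins of the particle it belongs to. Of 76 other cytosolic ribosomal protein rows, the median log2 difference was -0.11, with an interquartile range of -0.17 to -0.06, against a median of 0.01 over all tested rows. Rps27a, at -0.09, was within 0.1 of 58 of them, and 47 of them had lower differences. Limma called 0 of the 76 rows after Benjamini-Hochberg adjustment, and 1 row of each subunit was lower at an unadjusted p under 0.05. The shares over all tested rows were 0.345% called and 7.08% lower at that unadjusted threshold. In the large subunit the extremes were Rpl26 (-0.42) and Rpl34 (0.13), and the highest difference in the small one was that of Rps27 (2.38). The Rps27 difference rests on WT_0, with 711 and 408 FPKM in the dKO libraries, against 15.6 and 643 FPKM in the WT libraries, and it was called without WT_1. The level of Rps27a was 0.693 and 0.683 times the median ribosomal protein row in the dKO libraries and 0.673 and 0.661 times in the WT libraries. Between 51 and 54 of the 76 rows had a higher FPKM than Rps27a in each library, so it lay in the lower part of that class in both genotypes.

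The 5 rows with the profile nearest to each gene were found by Euclidean distance of log2(FPKM + 1) values centred per row over the 4 libraries, among 6846 rows with a mean FPKM of at least 10. For Rps27a these were the large subunit genes Rpl19 (distance 0.0184), Rpl7, Rpl32, Rpl37a and Rpl36a (0.0271). Of the 20 nearest rows, 13 were ribosomal protein rows, and such rows are 76 of the 6846. The Rps27a profile was nearly flat, highest in WT_0 and lowest in dKO_1, and 1982 rows lay within a distance of 0.2. For Ubb the nearest rows were Ift80 (0.0468), which encodes a subunit of intraflagellar transport, Il6st (0.0494), the signalling receptor chain gp130, Nsg2 (0.0969), Ecm1 (0.134) and Il6ra (0.201), the receptor for interleukin 6. Only 4 rows lay within 0.2 of Ubb, and 0 of its 20 nearest were ribosomal protein rows. Il6st, for example, averaged 29.1 ± 1.02 FPKM in dKO and 56.7 ± 2.64 FPKM in WT (SD, n = 2 each). With 4 libraries these distances are descriptive, and those to Ubb rest on the same values by which Ubb was chosen.

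**Figure D4:**
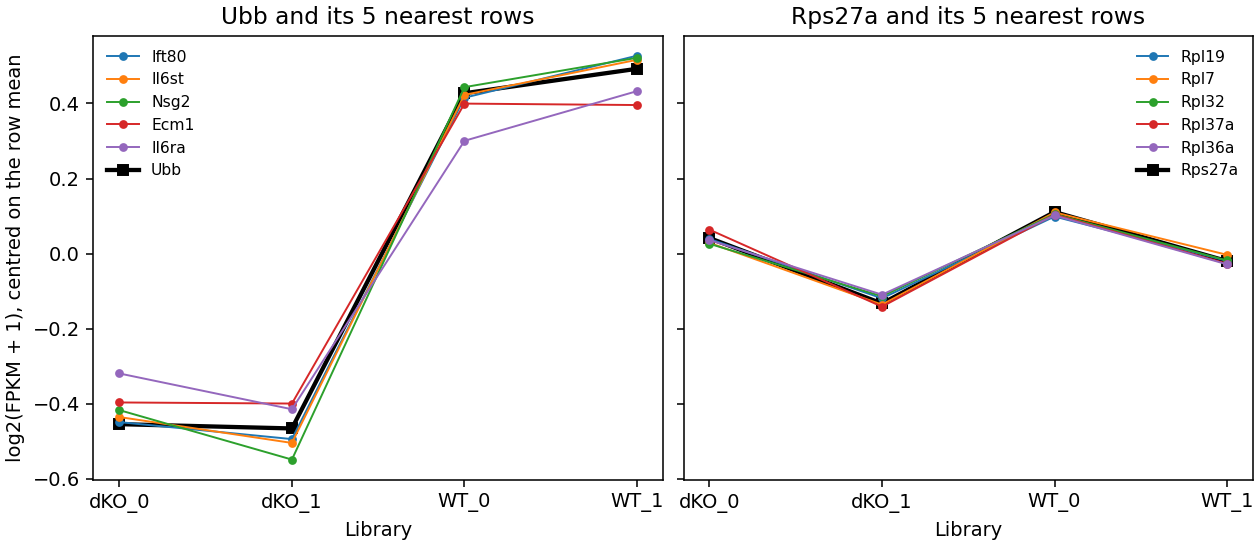
Values of log2(FPKM + 1) centred on each row's mean, by library, for Ubb (left) and Rps27a (right) with the 5 nearest rows of each. Ubb lies at -0.45 and -0.47 in the dKO libraries and at 0.43 and 0.49 in the WT libraries, while Rps27a stays between -0.13 in dKO_1 and 0.11 in WT_0.

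The enzymes that attach ubiquitin had median differences near 0. Across all tested rows, limma with Benjamini-Hochberg adjustment called 40 of 11595 rows (0.345%), 21 of them higher in dKO (0.181%) and 19 lower (0.164%). At an unadjusted p under 0.05, 1118 rows were higher (9.64%) and 821 lower (7.08%). The count of calls rested on single libraries, with 2 calls without dKO_0 or without dKO_1, 177 without WT_0 and 217 without WT_1. With all libraries and all tested rows, limma called 0 members of the 11 gene lists. These cover the ubiquitin system, heat shock factor targets, immediate early genes and ribosomal proteins. The authors' list of genes lower in dKO held 6 of 22 heat shock factor targets and 1 of 17 immediate early genes. Their list of genes higher in dKO held 1 E2 gene and 1 ligase, and none of the other gene lists had a member in either. These 2 lists hold 0.604% and 0.76% of all rows. Neither of the E1 genes, which activate ubiquitin, passed an unadjusted p under 0.05, and Uba1 averaged 131.6 ± 0.547 FPKM in dKO and 130.0 ± 4.84 FPKM in WT. Of 29 E2 genes, 2 were higher and 1 lower at that level, with a median difference of 0.03. The extremes among well expressed E2 genes were Ube2c, which acts in mitosis, at 0.82 (limma, Benjamini-Hochberg adjusted p = 0.322, and called without WT_0) and Ube2d2a at -0.21 (adjusted p = 0.254). Of 33 ligases of T cells, 3 were higher and 2 lower, with a median of -0.03, and the extremes among well expressed members were Dtx3l at 0.23 and Smurf2, a ligase of TGF-beta signalling, at -0.32. Nedd4, a ligase of low level in WT cells and singled out after its values were seen, had 16.0 and 15.5 FPKM in the dKO libraries, against 2.92 and 4.64 FPKM in the WT libraries (difference 1.84, limma, Benjamini-Hochberg adjusted p = 0.0744). It was called when WT_0, WT_1 or the small RNA rows were left out. The median over all rows was 0.01.

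Genes that release or read ubiquitin also had medians near 0. By the same unadjusted threshold, 3 of 25 tested deubiquitinase genes were higher and 2 lower, with a median difference of 0.00. Among them, 12 had positive and 13 had negative differences. Uchl3, Otulin and Usp5 had differences of 0.26, 0.23 and 0.10. These 3 were singled out after their values were seen, and Usp7 and Usp9x of the same list had -0.06 and -0.13. Tnfaip3, which restrains NF-kappaB signalling, averaged 32.1 ± 2.13 FPKM in dKO and 47.3 ± 9.10 FPKM in WT, a difference of -0.53 (limma, Benjamini-Hochberg adjusted p = 0.221, and called without WT_0). Psmd14, the deubiquitinase of the proteasome lid, had the most positive difference, 0.29. Of 16 genes for ubiquitin-like modifiers, 1 was higher and 0 lower, with a median of 0.02. Fau, which like Rps27a fuses a modifier to a ribosomal protein, had a difference of -0.05, close to the -0.09 of Rps27a, and Ubl5 was at the other end with 0.22. Of 17 ubiquitin receptor and shuttle genes, 1 was higher and 1 lower, with a median of -0.02, from Rad23b at 0.25 to Ubqln4 at -0.25 among well expressed members.

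The proteasome and heat shock lists had medians farther from 0, on opposite sides. Of 38 genes for the proteasome, the complex that degrades ubiquitin-tagged proteins, 7 were higher and 0 lower by that unadjusted threshold. Of the 38, 36 had positive differences, and the median was 0.17. Over all 11595 tested rows, 6126 differences were positive and 5469 negative. Psmb9, a subunit of the immunoproteasome, averaged 345 ± 4.89 FPKM in dKO and 267 ± 6.36 FPKM in WT, a difference of 0.37 (limma, Benjamini-Hochberg adjusted p = 0.127). Psme4, an activator of the proteasome, had the lowest difference, -0.06. The sign of the proteasome median was thus opposite to that of the Ubb difference. Of 21 tested heat shock factor target genes, the group that Ubb is known to belong to, 0 were higher and 14 lower. Among the 21, 19 had negative differences, and the median was -0.45. The list and these counts also include the genes of the factors themselves, Hsf1 (-0.18) and Hsf2 (-0.16). Hsph1, which encodes a large chaperone of the Hsp110 family, had 67.4 and 55.2 FPKM in the dKO libraries, against 113 and 140 FPKM in the WT libraries, a difference of -1.03 (limma, Benjamini-Hochberg adjusted p = 0.118). Hspa4, a relative of Hsph1, had a difference of 0.03. Only 3 of the 21 had a lower difference than Ubb, namely Hsph1, Hspb1 (-1.25) and Bag3 (-0.95). Leaving out WT_0 gave 2 calls in this list (Hsph1 and Bag3), leaving out WT_1 gave 1 (Hspb1), and leaving out small RNA rows gave 4 (these and Stip1). In 17 of the 21 genes dKO_1 was the lowest library, as for Hsph1, and dKO_1 was also the lowest library for Ubb, by less than 2 FPKM. Of 17 immediate early genes, which mark recent stimulation or handling of cells, 0 were higher and 5 lower, with a median of -0.17, from Dusp1 at -0.78 to Egr2 at 0.29. Without WT_0, Dusp1 and Nr4a1 were called. These lists were drawn up with earlier results of these data known, so their direction is no independent evidence about Ubb.

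**Figure D5:**
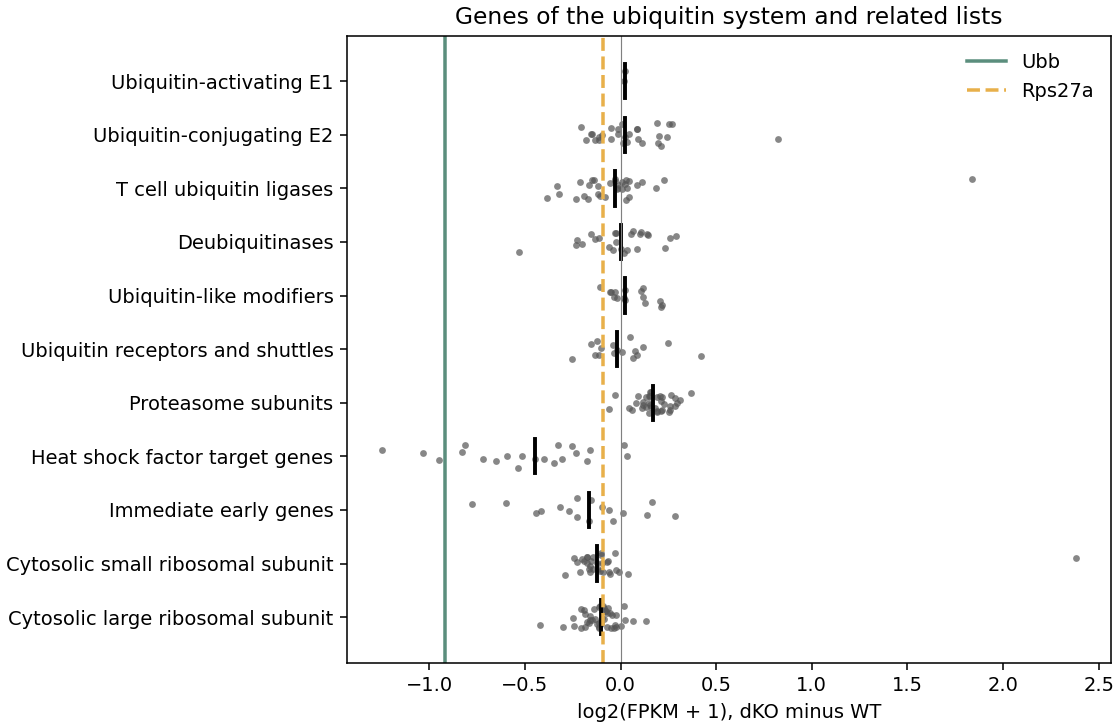
Differences in log2(FPKM + 1), dKO minus WT, for each tested gene (points) of 11 gene lists, with list medians as black bars and vertical lines for Ubb (solid) and Rps27a (dashed). The Ubb line at -0.92 lies beyond all points except 3 heat shock factor targets, and the Rps27a line at -0.09 lies within the ribosomal protein points.

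Both genes share chromosome 11 with Tcf7, which was floxed in the dKO mice and lies at chr11:52252371-52283014 (GRCm38), 10.3 Mb from Ubb. Of 103 tested rows between Tcf7 and Ubb, limma called 1 after Benjamini-Hochberg adjustment, the small RNA Mir6920. An unadjusted p under 0.05 was found for 21 of the 103, and the median difference was -0.03. Of all 11595 tested rows, 40 (0.345%) were called and 1939 had such a p, with a median difference of 0.01. Within 1 Mb of Ubb, 0 of 19 rows were called and 1 had an unadjusted p under 0.05. The nearest tested neighbour on the higher side, Trpv2, a cation channel gene, averaged 43.5 ± 0.627 FPKM in dKO and 41.6 ± 0.0457 FPKM in WT. On the lower side, Cenpv had a difference of -0.08. Within 1 Mb of Rps27a, 0 of 6 rows were called and 0 had an unadjusted p under 0.05. Mtif2, whose end lies 0.567 kb from Rps27a, averaged 14.7 ± 0.461 FPKM in dKO and 14.4 ± 0.0211 FPKM in WT, and Rtn4, on the other side, had a difference of 0.04. Differences within 1 Mb of Ubb ran from -0.73 for Pmp22 to 1.003 for the small RNA Snord49a.

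Since the deleted factors bind DNA, the promoter of Ubb is shown from RefSeq (GRCm38.p6, chr11:62550921-62551200, plus strand), from 250 bases before the first annotated start to 30 bases after it. Capitals mark CCAAT and CTTTGA matches.
Ubb promoter: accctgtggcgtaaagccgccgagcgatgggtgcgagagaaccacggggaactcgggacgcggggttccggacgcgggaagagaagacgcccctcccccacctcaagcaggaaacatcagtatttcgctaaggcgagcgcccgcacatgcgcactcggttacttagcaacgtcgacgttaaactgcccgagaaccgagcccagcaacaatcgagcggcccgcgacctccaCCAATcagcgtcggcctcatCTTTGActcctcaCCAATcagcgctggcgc
CTTTGA, the core of the TCF/LEF motif, matched 1 time on the plus strand, with its first base at the start itself, and 15.2% of 32851 promoters of the same length hold a match on either strand. CCAAT matched 2 times, with first bases at -20 and 14 relative to the start, and 36.1% of promoters hold it. The letters GAANNTTC and TTCNNGAA, from the heat shock element, were not found in this window, and 7.38% and 8.03% of promoters hold them. TGACG, found in sites of ATF and CREB factors, had 0 matches here and 3 in the window of a second annotated start, and 19.9% of promoters hold it. No motif overlapped another in this window. In the window of the second annotated start, the TCF/LEF core had 0 matches. The other motifs named above, apart from that of ATF and CREB factors, also had 0 matches there. A match is a description of letters, and binding was not measured.

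Facts of the libraries as a whole bear on the values above. Estimated depth was 24700000 and 26500000 fragments in the dKO libraries and 20300000 and 24500000 in the WT libraries. Tcf7 had 246.9 and 249.6 FPKM in the dKO libraries and 345.0 and 309.1 FPKM in the WT libraries, and Lef1 had 41.3 and 36.0 FPKM in dKO and 59.9 and 66.5 FPKM in WT. Neither passed the test (limma, Benjamini-Hochberg adjusted p = 0.158 for Tcf7, range over the alternatives 0.0724 to 0.636, and 0.113 for Lef1, range 0.0379 with small RNA rows left out to 0.521 without dKO_1). A row FPKM sums all exons of a gene, so it does not measure deletion of the floxed part. The 9 T and Treg cell markers, Foxp3 included, had 85.8 FPKM or more in each library and summed to 2518 and 2449 FPKM in dKO and 2389 and 2351 FPKM in WT. Markers of other cells were also present and varied between libraries. The 8 B cell markers summed to 127 and 192 FPKM in dKO and 128 and 48.2 FPKM in WT, all 8 with positive differences. The 8 monocyte and macrophage markers summed to 278 and 258 FPKM in dKO and 288 and 372 FPKM in WT, all 8 with negative differences. For scale, 6126 of all 11595 tested rows had positive differences and 5469 negative ones. The 5 plasma cell markers summed to 235 and 194 FPKM in dKO and 392 and 283 FPKM in WT. Most of that sum was Jchain, at 152 and 102 FPKM in dKO and 281 and 213 FPKM in WT, while Prdm1 went the other way, at 12.6 and 12.8 FPKM in dKO and 8.30 and 4.59 FPKM in WT. The 6 NK cell markers summed to 149 and 154 FPKM in dKO and 63.4 and 68.5 FPKM in WT, mostly Nkg7, while 4 of the 6 had negative differences. Nkg7 was also the only marker that limma called (difference 1.62, Benjamini-Hochberg adjusted p = 0.00516, but 0.117 without dKO_0 and 0.116 without dKO_1). Erythroid marker sums ranged from 18.5 FPKM in WT_1 to 100.3 FPKM in WT_0, and CD8 T cell and platelet sums were at most 10.1 and 9.54 FPKM. No marker analysed here was at 0 in all 4 libraries. The part of these cells in the Ubb difference was not tested, and in bulk RNA fewer cells of a type and less RNA per cell cannot be told apart.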

How the data were processed

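RNA from 2 dKO and 2 WT libraries of sorted splenic Treg cells was analysed. The submitters' processing notes name the mm10 genome and the tools TopHat2 2.1.0, FastQC and Cuffdiff 2.2.1. Not given in the sources used here are the annotation, strand setting, read length and handling of reads with several matches. Deposited by the authors were FPKM per gene for each library and as group means, with the authors' log2 fold changes, in a table of 24346 rows, and shorter lists of genes higher or lower in dKO. Library columns were tied to groups by name.

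FPKM are not counts, so limma 3.58.1 (R 4.3.3) was run on log2(FPKM + 1) values (intensity trend, two-sided, Benjamini-Hochberg adjustment over the 11595 rows that reached FPKM 1 in 2 or more libraries). A row was called at an adjusted p under 0.05. Fold changes of low genes are understated by the pseudocount of 1. Residual degrees of freedom were 2, and the test was tried on simulated data. No p is given for Ubb or Rps27a. Depth was estimated from the spacing of low FPKM values with an assumed fragment length of 180 bases; counting errors cover counting only.

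Ubiquitin units and 50-base windows were counted in GENCODE M21 transcripts with Python 3.11.15 and Biopython 1.88, since the protein table planned for this was not used here. Of the tested rows, 11166 matched an annotated symbol. The Ubb promoter came from RefSeq, where 1 of the 2 genes was matched. The members and gene lists were chosen with earlier results of these data known. Genes named beside the members were up to 4 called members per list or else the members with the most positive and most negative difference at a mean FPKM of at least 10, the 5 nearest profiles and the nearest neighbours. Some genes that this rule names are not reported here, and the unit-weighted level is given for Ubb and Rps27a alone. Gm1821 (for its sequence), Uchl3, Otulin, Usp5, Usp7, Usp9x, Pmp22, Snord49a, Jchain and Prdm1 were added after the values were seen. So were Nedd4, Hspb1, Bag3, Stip1, Nr4a1 and Nkg7. Alternatives covered the pseudocount, the filter, 2 scalings, small RNAs, the trend and leaving out each library. Small RNA rows were recognised by gene name alone.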

Additional observations from a re-analysis of the deposited data

How the results depend on the processing

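The Ubb difference of -0.92 was -0.98 with quantile normalization and ranged from -0.95 to -0.89 when each library was left out in turn. With the FPKM of Ubb and Gm1821 summed, an alternative chosen after seeing the data, it was -0.19. With each FPKM multiplied by transcript length before summing, also chosen after seeing the data, it was -0.43. Rps27a stayed negative under each setting tried, from -0.18 without dKO_0 to -0.004 without dKO_1. The log2 ratio of the unit-weighted sum of Ubb and Rps27a was -0.45, and -0.51 to -0.39 when a library was left out. With Gm1821 summed and given the weight of Ubb (chosen after seeing the data), that ratio was -0.15. Rows called by limma numbered 40, against 16 with no filter, 179 without small RNAs and 2 to 217 when a library was left out (2 without dKO_0 or without dKO_1, 177 without WT_0, 217 without WT_1). The lone library of a group was then assumed to vary like the other group. Without small RNAs, 1 ligase (Nedd4, higher in dKO) and 4 heat shock factor targets (Hsph1, Hspb1, Bag3 and Stip1, lower in dKO) were called. Leaving out a library gave 0 to 1 call among E2 genes (Ube2c), ligases (Nedd4), deubiquitinases (Tnfaip3) and small ribosomal subunit genes (Rps27), and 0 to 2 among heat shock factor targets and immediate early genes (Nr4a1, Dusp1), each from leaving out WT_0 or WT_1. The cause of these shifts was not tested. Of 144 alternative values, 125 kept their direction and side of the threshold, or moved by less than the spread between libraries. No setting moved the median of all rows by over 0.1. No paired analysis was possible because the library columns carry suffixes 0 and 1 that the titles' replicate numbers 1 and 2 do not use. Depth limits Ubb and Rps27a little, while near-identical copies limit both.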
